A study of Mus musculus with 6 samples.

Results

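The 10 genes described here are that of the transcription factor Nrf2 (Nfe2l2) and those of enzymes that remove reactive oxygen species or make the thiols used for it, namely Nqo1, Gclc, Gclm, Gpx1, Gpx4, Txnrd1, Cat, Sod1 and Sod2. They were taken by symbol from the 31053 genes of the count table, and all 10 were found. RNA was sequenced from quiescent muscle stem cells (qMuSCs) sorted by FACS from resting hindlimb muscles of mice that were 3 to 4 months old, with a library for each of 3 WT mice (c124, c129, c130) and 3 cD2KO mice (fl125, fl126, fl128). The WT mice were Pax7nGFP/+;Pax7+/+;Dio2Fl/Fl and the cD2KO mice Pax7nGFP/+;Pax7-CreERT2/+;Dio2Fl/Fl. All of them carried the floxed alleles of Dio2, the gene of type 2 deiodinase (D2), as well as the nuclear GFP reporter used for sorting, and all received tamoxifen. Only the cD2KO mice carried CreERT2, which acts in cells that express Pax7, so that effects of the recombinase and of D2 loss cannot be told apart.

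Nrf2 is held in the cytoplasm and handed to degradation by Keap1 until oxidants or electrophiles modify Keap1. Nrf2 then enters the nucleus, pairs with small Maf proteins and binds antioxidant response elements (AREs), and the genes of glutathione synthesis, of thioredoxin reductase and of Nqo1 are classic targets. Superoxide dismutases turn superoxide into hydrogen peroxide, and catalase, glutathione peroxidases and the thioredoxin system remove the peroxide. In muscle stem cells the redox balance is known to bear on quiescence and differentiation. Gpx1, Gpx4 and Txnrd1 are selenoproteins, as is D2 itself.

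The core of the ARE was searched on both strands in the RefSeq promoter windows of GRCm38.p6 (mm10), which run from 250 bases before to 50 bases after a start site. Windows were found for 9 of the 10 genes, in 14 windows, and 4 of these 9 genes held the letters TGACNNNGC. Among all genes with a window, 14.0% did. Counted by window, it was 4 of the 14 windows, against 12.4% of all 32851 windows. The matching stretches are shown because the ARE is the element that Nrf2 is known to bind, with the match in capitals and 10 bases on either side. They read 5′ to 3′ on the strand of the gene and lie at chr2:75704885-75704913 (minus strand) for Nfe2l2, chr3:122245413-122245441 (plus) for Gclm, chr10:82859104-82859132 (plus) for Txnrd1 and chr16:90220696-90220724 (plus) for Sod1.

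Nfe2l2: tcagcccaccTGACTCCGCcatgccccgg
Gclm: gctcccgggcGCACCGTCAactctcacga
Txnrd1: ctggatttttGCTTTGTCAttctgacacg
Sod1: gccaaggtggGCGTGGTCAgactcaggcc

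The match in Nfe2l2 is on the strand of the gene, and those in Gclm, Txnrd1 and Sod1 are on the other strand. The first base of the capitals lies 240, 134, 92 and 56 bases upstream of the annotated start in Nfe2l2, Gclm, Txnrd1 and Sod1. In Txnrd1 the start is one of several annotated ones. The letters AGGTCA, the half-site to which thyroid hormone receptors bind, were found on either strand for Cat and Gpx4, that is for 2 of the 9 genes, against 18.1% of all genes with a window. A match describes letters and was not tested for binding, and neither motif was among the letters of the Sod2 window.

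The libraries held between 2184073 and 3897787 counts, where 3 counts stand for 0.773 to 1.37 CPM (counts scaled to a common total over the tested genes, with TMM factors). The targeted gene was at the limit of this depth, with 21, 5 and 10 counts of Dio2 in c124, c129 and c130 and 15, 5 and 1 counts in fl125, fl126 and fl128. Dio2 counts span the whole gene and not the floxed part alone, so they cannot settle whether the allele was recombined. Among the 6 libraries Dio2 was highest, per count sequenced, in the library labelled fl125. The place of fl125 is the reverse of what its label would give, but it rests on 15 counts in that library. The other cD2KO mice, fl126 and fl128, lay below all WT mice, at 1.72 and 0.316 CPM on 5 and 1 counts. The WT mice c124, c129 and c130 were at 5.41, 1.86 and 3.48 CPM. Pax7 was present in all libraries, at 352 ± 121 CPM in WT mice against 487 ± 190 in cD2KO mice (SD, n = 3 per group). Markers of other cells were also present. The summed immune markers and the summed mural markers did not overlap between the groups. The sums of endothelial, fibroadipogenic, muscle fibre and dissociation genes did overlap. Summed immune markers were at 4512 to 9111 CPM in WT, at 2786 and 2959 CPM in fl126 and fl128 and at 311 CPM in fl125. Of the 22 immune markers tested, 5 were lower and 0 higher in cD2KO (edgeR, unadjusted p under 0.05). Among all genes tested 6.62% were lower and 5.34% higher at this line. All 22 immune markers had a log2 fold change below 0, with a median of -1.88. In 16 of them all cD2KO mice lay below all WT mice, against 10% of all genes tested. The lymphocyte markers Cd3e, Cd79a and Ms4a1 were too low to be tested. Of the 15 mural cell markers 9 were higher and 0 lower, with sums of 8053 to 12888 CPM in WT and 16446 to 24008 CPM in cD2KO. Of the 16 endothelial markers tested 7 were lower and 0 higher, with overlapping sums of 458 to 748 CPM in WT and 401 to 568 CPM in cD2KO. Of the 14 genes known to be induced by tissue dissociation 8 were lower and 0 higher, with sums of 5495 to 14518 CPM in WT and 4915 to 7131 CPM in cD2KO. Of the 14 muscle stem cell markers 4 were higher and 1 lower, and of the 11 fibroadipogenic markers tested 1 was higher and 3 lower. Of the 12 muscle fibre markers tested 1 was higher and 0 lower. All 12 fibre markers had a log2 fold change above 0, with a median of 0.54. The part of these cells in the results below was not tested, and in bulk RNA fewer cells of a type and less RNA per cell cannot be told apart.

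**Figure D1:**
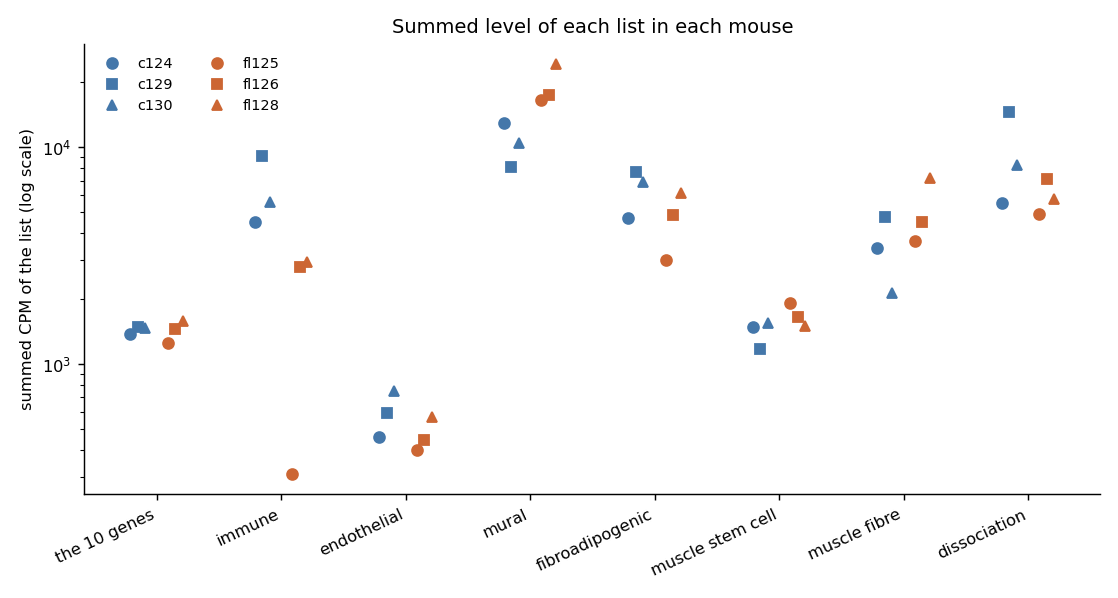
Summed CPM (log scale) of the 10 genes and of each list of marker genes in every mouse, with WT in blue and cD2KO in orange and a symbol for each mouse. The 10 genes together span 1254 to 1568 CPM over the 6 mice, with overlapping groups, whereas the immune sum of the library labelled fl125 stands at 311 CPM.

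Of the 10 genes, 9 passed the minimum on expression and Nqo1 did not. In the bulk RNA of the sorted cells Sod2 was higher in cD2KO mice, by 1.57-fold (95% interval 1.14 to 2.16). The other 8 tested genes did not pass the test in either direction. A call here is an unadjusted p under 0.05 in edgeR's quasi-likelihood test, the line used in the study, and 12% of the 11633 genes tested passed it in either direction, 5.34% as higher and 6.62% as lower. The share of 1 in 9 is thus near that of all genes. No member passed a Benjamini-Hochberg adjusted p under 0.05 over all genes tested, which 0.0086% of them did, or one under 0.1, which 0.774% did. The median log2 fold change of the 9 genes was -0.22, against -0.02 for all genes tested, and 2 of the 9 had a value above 0, as 48.1% of all genes did, with a range from -0.72 (Gpx4) to 0.65 (Sod2). This median was -0.05 without WT mouse c129 and -0.32 without WT mouse c124. The groups did not overlap in 2 of the 9 genes, Sod2 and Nfe2l2, against 18.1% of all genes tested (8.05% with cD2KO above, as Sod2, and 10% with cD2KO below, as Nfe2l2).

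**Figure D2:**
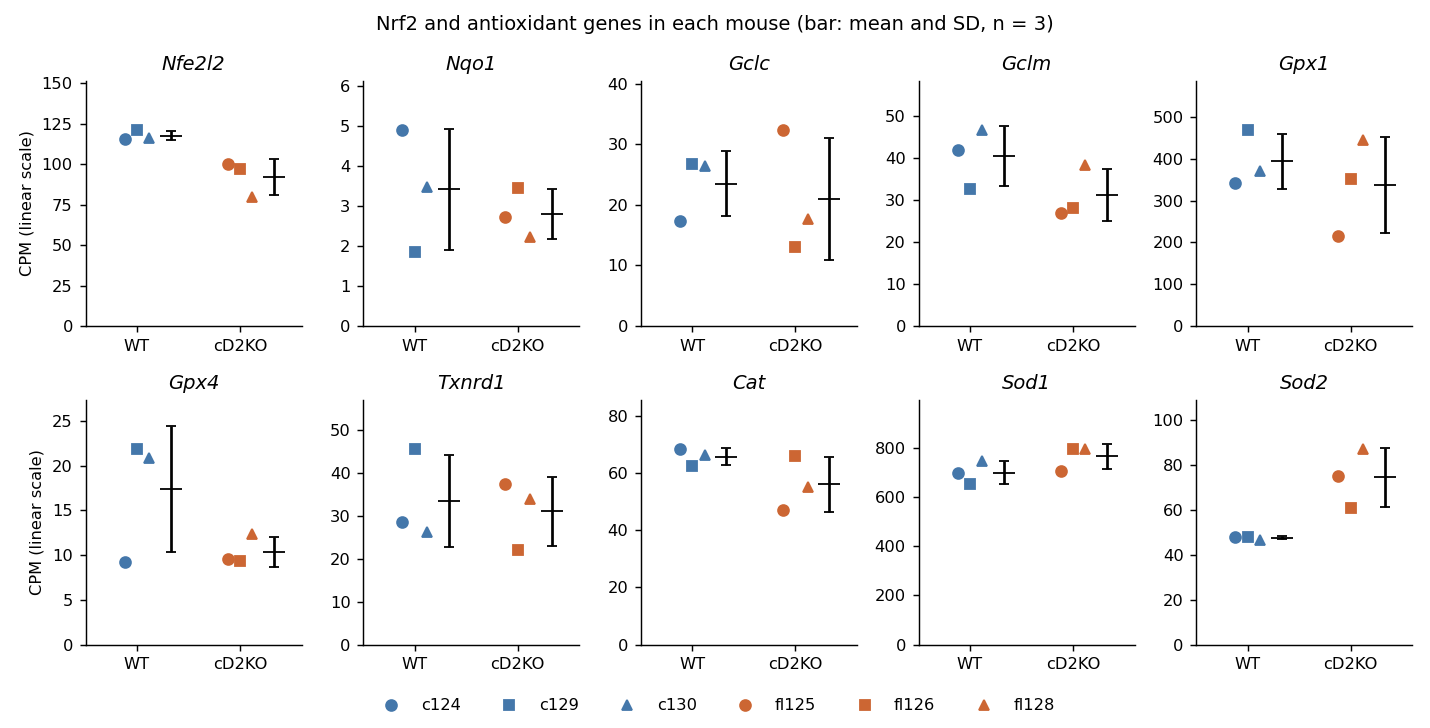
Level of each of the 10 genes in CPM (linear scale from 0) in every mouse, with WT in blue, cD2KO in orange and the mean and SD beside the points (n = 3 mice each). All cD2KO mice lie above all WT mice for Sod2, from 60.5 CPM against at most 47.9 CPM, and below them for Nfe2l2, from at most 100.2 CPM against 116 CPM, and the groups overlap in the other 8 genes.

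Nfe2l2 (ENSMUSG00000015839, chr2:75675513-75704641, minus strand, 6 exons when the transcripts are merged) was at 116, 121 and 116 CPM in c124, c129 and c130 and at 100.2, 97.0 and 79.6 CPM in fl125, fl126 and fl128. All cD2KO mice were below all WT mice, and fl128 was the lowest. The means were 118 ± 2.96 CPM in WT mice against 92.3 ± 11.1 in cD2KO mice (SD, n = 3 per group). The log2 fold change was -0.35 (standard error 0.19, 95% interval -0.76 to 0.06) and did not pass edgeR's test, with an unadjusted p of 0.0854 (adjusted p = 0.4999). It stayed negative in the 15 other fits, that is with each mouse left out and under the 9 other settings, from -0.41 to -0.26, with p between 0.0532 and 0.246 in edgeR, DESeq2 or limma, so that it did not pass in any of them.

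Nqo1 (ENSMUSG00000003849, chr8:107388225-107403206, minus strand), a quinone reductase and a common readout of Nrf2 activity, had 19, 5 and 10 counts in c124, c129 and c130 and 6, 10 and 7 counts in fl125, fl126 and fl128. WT mice held both the highest and the lowest CPM of the 6, so the groups overlapped. Its mean of 8.89 normalized counts was under the minimum of 10. At 3.41 ± 1.52 CPM in WT mice against 2.79 ± 0.617 in cD2KO mice (SD, n = 3 per group), no difference was detectable at this depth (exact permutation test, two-sided, p = 0.6, where 0.1 is the smallest p possible). In edgeR's fit without a minimum the 95% interval of the log2 fold change ran from -2.08 to 1.54, which leaves room for a large change either way.

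Gclc and Gclm encode the catalytic and the modifier subunit of glutamate-cysteine ligase, the rate-limiting enzyme of glutathione synthesis. Gclc (ENSMUSG00000032350, chr9:77754535-77794485) was at 17.3, 26.7 and 26.5 CPM in c124, c129 and c130 and at 32.3, 13.1 and 17.7 CPM in fl125, fl126 and fl128. The cD2KO mice held both the highest and the lowest value. Its log2 fold change was -0.17 (95% interval -0.95 to 0.61, edgeR adjusted p = 0.912) and was 0.09 without fl126. Gclm (ENSMUSG00000028124, chr3:122245557-122270732) was at 42.0, 32.7 and 46.6 CPM in the WT mice in the same order and at 26.9, 28.2 and 38.2 CPM in the cD2KO mice. The fl125 and fl126 values lay under every WT value and that of fl128 among them. Its log2 fold change was -0.38 (95% interval -0.94 to 0.19, edgeR adjusted p = 0.626) and stayed between -0.55 and -0.24 with each mouse left out. Within a library, a ratio of genes does not depend on the scaling, and the ratio of Gclm to Gclc counts was 1.81 ± 0.606 in WT and 1.72 ± 0.767 in cD2KO (SD, n = 3 per group; exact permutation test, two-sided, p = 0.8).

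Gpx1 and Gpx4 are glutathione peroxidases, Gpx1 acting on soluble peroxides and Gpx4 on lipid peroxides in membranes, where it holds back ferroptosis. Gpx1 (ENSMUSG00000063856, chr9:108338903-108340343) was at 343, 469 and 370.4 CPM in c124, c129 and c130 and at 215, 352 and 445 CPM in fl125, fl126 and fl128. The library labelled fl125, which was also the lowest in immune markers, was far below the other 5, and fl126 and fl128 lay within the WT range. Its log2 fold change was -0.22 (95% interval -0.77 to 0.32, edgeR adjusted p = 0.794), and without fl125 it was 0.06.

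Gpx4 (ENSMUSG00000075706, chr10:80047166-80056439) had 36, 59 and 60 counts in c124, c129 and c130 and 21, 27 and 39 counts in fl125, fl126 and fl128. In CPM the WT mouse c124, at 9.27, lay with the cD2KO mice, at 9.56, 9.29 and 12.3, and c129 and c130 were at 21.9 and 20.9. Gpx4 had the most negative log2 fold change of the 9 genes, -0.72 (standard error 0.40, 95% interval -1.59 to 0.14), and did not pass edgeR's test, with an unadjusted p of 0.0948 (adjusted p = 0.514). Without c124 it was -1.04 with an unadjusted p of 0.0193 in edgeR, and it did not pass with any other mouse left out. Of the 1805 different stretches of 50 bases in its annotated transcripts, 34.7% also occur in a transcript of another gene, among them the pseudogene Gpx4-ps2, so its counts are uncertain where such reads were dropped or split. The ratio of Gpx4 to Gpx1 counts was 0.0434 ± 0.0150 in WT and 0.0329 ± 0.0101 in cD2KO (SD, n = 3 per group; exact permutation test, two-sided, p = 0.3).

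Txnrd1 (ENSMUSG00000020250, chr10:82833951-82897712), the cytosolic thioredoxin reductase that keeps thioredoxin reduced, was at 28.6, 45.7 and 26.1 CPM in c124, c129 and c130 and at 37.3, 22.01 and 33.8 CPM in fl125, fl126 and fl128. The groups overlapped, with c129 highest and fl126 lowest. Its log2 fold change was -0.11 (95% interval -0.76 to 0.55, edgeR adjusted p = 0.935), and it was 0.20 without c129 and 0.09 without fl126. Txnrd1 overlaps Eid3 on the same strand, which had 28 counts in the 6 mice together. Cat (ENSMUSG00000027187, chr2:103453849-103485160, minus strand), the catalase of peroxisomes, was at 68.5, 62.4 and 66.1 CPM in the WT mice in the same order and at 46.9, 66.0 and 55.0 CPM in the cD2KO mice. The values of fl125 and fl128 lay under all WT values and that of fl126 did not. The log2 fold change of Cat was -0.23 (95% interval -0.68 to 0.23, edgeR adjusted p = 0.738).

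Sod1 and Sod2 encode the superoxide dismutases of the cytosol and of the mitochondrial matrix. Sod2 (ENSMUSG00000006818, chr17:13006846-13040063) was at 47.6, 47.9 and 46.6 CPM in c124, c129 and c130 and at 75.1, 60.5 and 87.2 CPM in fl125, fl126 and fl128. The WT mice lay close together, and every cD2KO mouse was above them, fl128 the most. The means were 47.4 ± 0.661 CPM in WT mice against 74.3 ± 13.3 in cD2KO mice (SD, n = 3 per group), and the difference was larger than this spread. On the log2 scale it was 0.65 (standard error 0.21, 95% interval 0.19 to 1.11), with an unadjusted p of 0.00916 in edgeR's test (adjusted p = 0.219). Without fl128 the log2 fold change was 0.51 and the p reached 0.04996 in edgeR, just under the threshold, and it was between 0.58 and 0.68 under the 9 other settings. Its unadjusted p was under 0.05 in all 15 of these fits, and its adjusted p, from 0.137 to 0.5395, was under 0.05 in none of them. The rise stood beside that of the mural markers, whose sum was also highest in fl128. Between fl125 and fl126 the order differed, with mural sums of 16446 and 17289 CPM and Sod2 at 75.1 and 60.5 CPM. In c124, c129 and c130 the mural sums were 12888, 8053 and 10389 CPM, with Sod2 between 46.6 and 47.9 CPM. The part of mural cells in the rise was not tested. Of the stretches of 50 bases in Sod2 transcripts 21.045% occur in transcripts of other genes as well, most of them in AC166110.4, so a part of its counts is uncertain.

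Sod1 (ENSMUSG00000022982, chr16:90220754-90226329) was at 697, 654 and 746 CPM in c124, c129 and c130 and at 708, 794 and 797 CPM in fl125, fl126 and fl128. The values of fl126 and fl128 lay above all WT values, and that of fl125 did not. The log2 fold change was 0.13 (standard error 0.19, edgeR adjusted p = 0.852), and its 95% interval ran from 0.829-fold to 1.45-fold. Sod1 overlaps Scaf4 on the opposite strand, and the use of strand in counting is not given in the sources used here. The ratio of Sod2 to Sod1 counts was 0.0683, 0.0733 and 0.0625 in the WT mice and 0.106, 0.0762 and 0.109 in the cD2KO mice, so that all cD2KO mice were above all WT mice. Its difference was 0.50 on the log2 scale (exact permutation test, two-sided, p = 0.1, the smallest possible, and 0.5 when adjusted over the 5 ratios computed). The ratios of Txnrd1 and of Nqo1 to Nfe2l2 overlapped between the groups, with log2 differences of 0.26 and 0.16 (exact permutation test, two-sided, p = 0.6 and 0.9).

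**Figure D3:**
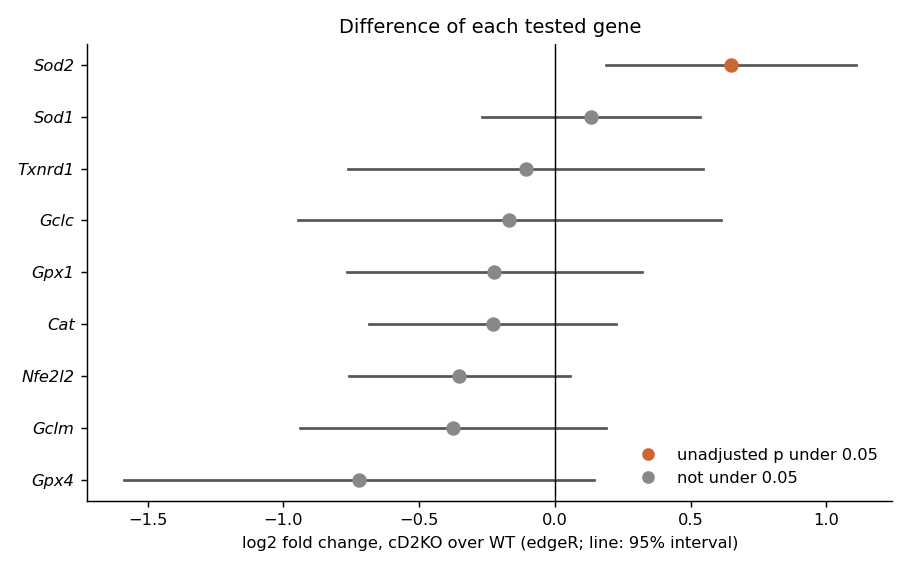
Log2 fold change of cD2KO over WT with its 95% interval for the 9 tested genes, from edgeR's quasi-likelihood test. Only the interval of Sod2, from 0.19 to 1.11, excludes 0, and those of Gpx4, Gclc and Txnrd1 are the widest.

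**Figure D4:**
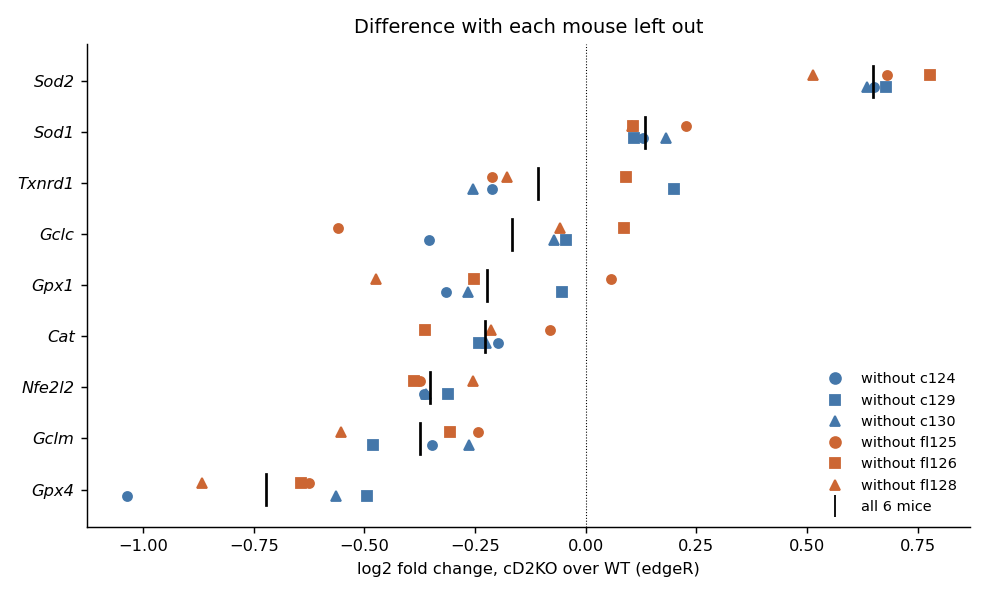
Log2 fold change of cD2KO over WT for the 9 tested genes with each mouse left out in turn (symbols, colored by the group of the mouse) and with all 6 mice (black bar). Sod2 stays between 0.51 and 0.78, whereas Txnrd1, Gclc and Gpx1 cross 0.

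The genes were compared with each other over the 6 mice as a description, since they share libraries. The highest Pearson's r of log2 CPM between any of the 9 was 0.657, between Gclc and Txnrd1, and the lowest was -0.93, between Nfe2l2 and Sod2, the pair of genes whose groups did not overlap. The tested genes whose pattern was most like that of Sod2 over the 6 mice were Arpc5l, Prkacb and Mettl26, with r of 0.997, 0.992 and 0.991. Among those most like Nfe2l2 were Pofut1 and Gm13403, with r of 0.986 and 0.985. With 11632 genes compared over 6 mice, values of this size are the top of a long list.

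The other genes of the pathway were read from lists of 172 genes found in the table, of which 141 were tested. The lists hold genes that control Nrf2, further Nrf2 targets, genes of glutathione and other antioxidant enzymes. They also hold selenoproteins and enzymes that make reactive oxygen species. Of the 141 genes tested, 4 were higher and 14 lower in edgeR's test at that line, or 12.8%, against the 12% of all genes. Among the 14 lower genes, 5 were enzymes that make reactive oxygen species. Without c130, fl128 or fl125 the higher genes were 1, 2 or 13, and without c129 the lower ones were 8. Among all genes tested the higher ones, 621 with all mice, were 455, 402 or 933 in the same fits. The lower ones, 770 with all mice, were 399 without c129. Of the genes that control Nrf2, 16 were tested, and 0 rose and 0 fell at an unadjusted p under 0.05, by edgeR, DESeq2 and limma voom alike. The share of all genes in edgeR was 12%. Keap1, the adaptor that presents Nrf2 for degradation, averaged 85.2 ± 11.4 CPM in WT mice against 78.2 ± 9.20 in cD2KO mice (SD, n = 3 per group), a log2 fold change of -0.12 (95% interval -0.56 to 0.31). Btrc, an adaptor of another ligase that acts on Nrf2, and the small Maf gene Maff had the lowest p in each direction in this list, with values of 0.48 and -1.07 on the log2 scale (edgeR adjusted p = 0.524 and 0.600). Maff was at 49.7 CPM in c129 and between 8.21 and 13.7 CPM in the other 5 mice, and without c129 its value was 0.30.

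Of 36 tested genes described as further Nrf2 targets, 1 rose and 5 fell, or 16.7%, against the 12% of all genes, with a median log2 fold change of -0.14. Hmox1, the heme oxygenase that Nrf2 and Bach1 control, was at 87.0, 317 and 161 CPM in c124, c129 and c130 and at 12.3, 83.9 and 82.7 CPM in fl125, fl126 and fl128. All cD2KO mice were under all WT mice, and the spread within the groups was large. Hmox1 was highest in c129 and lowest in fl125, as were the summed immune markers, whose part was not tested. Its log2 fold change of -1.64 did not pass edgeR's test, with an unadjusted p of 0.115, but passed in limma voom, with one of 0.0119, and in non-robust edgeR, with one of 0.0141, and it was -1.01 without c129. The 4 genes that fell with the lowest p were Ftl1, the ferritin light chain, Blvrb, a biliverdin reductase, Mgst1, a membrane glutathione transferase, and Abcc4, an efflux transporter, with log2 fold changes in that order of -1.52, -1.31, -1.36 and -3.12 (adjusted p in edgeR of 0.0885, 0.0921, 0.105 and 0.151). With DESeq2 their adjusted p were 9.3e-05, 0.00791, 0.0224 and 0.0424, all under 0.05, and with limma voom 0.126, 0.148, 0.170 and 0.403. Abcc4 had 12, 41 and 13 counts in c124, c129 and c130 and 1, 1 and 5 counts in the cD2KO mice. Without c129 it fell under the minimum and was not tested, and without fl128 it was -4.11. In Ftl1, Blvrb and Mgst1 the library labelled fl125 was the lowest of the 6, as it was in immune markers. Blvrb and Mgst1 were highest in c129, as were the summed immune markers. Ftl1, however, was lower in c129, at 163 CPM, than in c124 and c130, at 179 and 182 CPM. The part of immune cells in these changes was not tested. Ugdh, named although outside the naming rule, was the fifth, at -0.78, and lost the call without c129 (-0.52) or fl126. Slc48a1, a heme transporter, was the gene that rose, with a log2 fold change of 0.47 (adjusted p in edgeR of 0.396), though it did not pass with total counts as the scale, with a minimum of 50 or without any of 4 of the mice, and was 0.30 without fl128. Gsta4, next by p on the higher side, had a log2 fold change of 0.59 and did not pass (edgeR adjusted p = 0.470). Srxn1, the sulfiredoxin that repairs peroxiredoxins, averaged 26.8 ± 4.83 CPM in WT mice against 35.2 ± 1.97 in cD2KO mice (SD, n = 3 per group), with no overlap between the groups and an edgeR adjusted p of 0.606. Slc7a11, the cystine carrier that feeds glutathione synthesis, had 3, 4 and 1 counts in the WT mice and 0 in each cD2KO mouse, too few for a fold.

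Of 24 tested genes of glutathione recycling and use, 0 rose and 0 fell at an unadjusted p under 0.05, again by each of edgeR, DESeq2 and limma voom. In edgeR 12% of all genes tested passed in either direction. Gsr, which reduces oxidized glutathione, averaged 5.65 ± 2.96 CPM in WT mice against 2.55 ± 0.421 in cD2KO mice (SD, n = 3 per group; edgeR adjusted p = 0.534). Of 32 tested antioxidant enzymes and thiol proteins other than the 10 genes, 2 rose and 2 fell, or 12.5%, near that share. Their median log2 fold change was 0.01. Msrb1, a methionine sulfoxide reductase and a selenoprotein, was at 154, 101 and 117 CPM in c124, c129 and c130 and at 194, 200.5 and 379 CPM in fl125, fl126 and fl128. It was higher in every cD2KO mouse, with fl128 the highest, as for Sod2 and the mural markers, whose part was not tested. Its log2 fold change was 1.06 (standard error 0.27, adjusted p of 0.124 in edgeR and 0.0155 in DESeq2), and it passed the unadjusted threshold with each mouse left out, with 0.67 without fl128. Msrb3, another such reductase, rose by 0.54 on the log2 scale. Sesn1, a stress-induced regulator, fell by 0.51 and Txnrd2, the mitochondrial thioredoxin reductase, fell by 0.92 (adjusted p in edgeR of 0.395 for Msrb3, 0.341 for Sesn1 and 0.396 for Txnrd2). Msrb3, Sesn1 and Txnrd2 lost the call in 4, 3 and 5 of the 6 fits without a mouse, and Txnrd2 had 49, 42 and 37 counts in the WT mice and 11, 21 and 29 in the cD2KO mice.

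**Figure D5:**
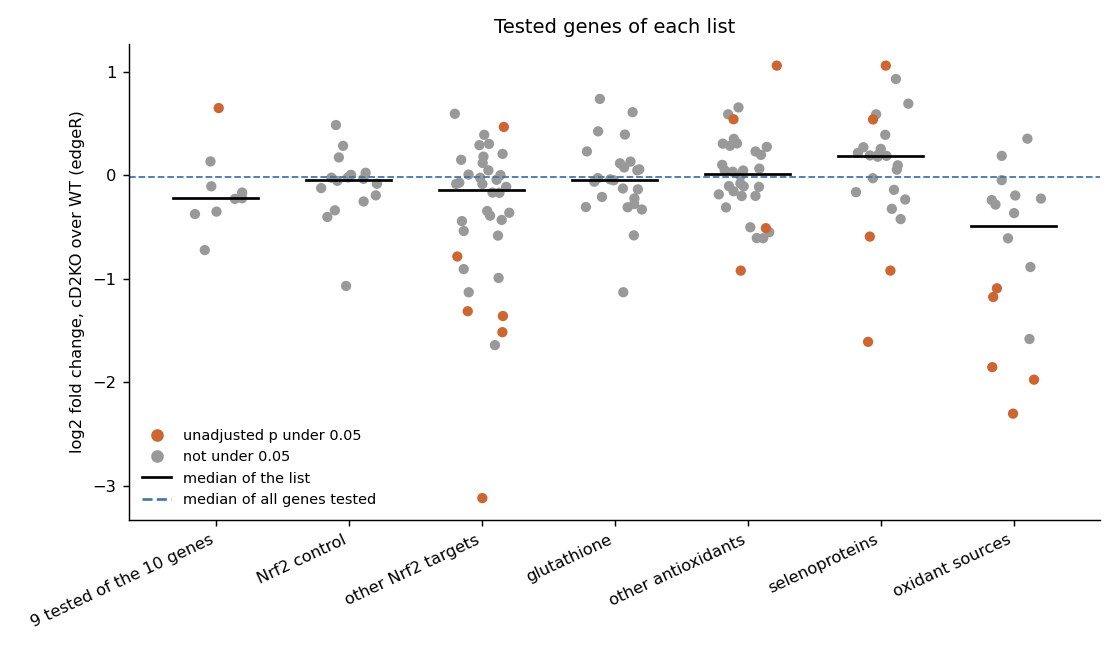
Log2 fold change of cD2KO over WT from edgeR for the 9 tested genes and for the tested genes of 6 further lists, which share some genes, the 10 genes being left out of the further lists. Black bars are medians, the dashed line is the median of all genes tested (-0.02) and orange points have an unadjusted p under 0.05. The oxidant sources have the lowest median, -0.49, and the lists of Nrf2 control and of glutathione hold no orange point.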

How the data were processed

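RNA was isolated by the authors (RNeasy Mini Kit), reads were aligned to mm10 with STAR, and the deposited table holds raw counts per gene, not normalized, for each of the 6 mice. The submitters' processing notes name STAR 2.6.0a and HTSeq 0.9.1. The annotation, the strand setting, PCR duplicates and batches are not given in the sources used here. GENCODE M21 gave symbols and coordinates (31011 of 31053 identifiers matched). Mice were grouped by labelled genotype, and nothing ties mice of the groups to each other.

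A minimum of 10 on the mean count after scaling by DESeq2 size factors, taken from the study, left 11633 genes. edgeR 4.0.16 (R 4.3.3) then gave TMM factors and robust quasi-likelihood tests without covariates, with Benjamini-Hochberg adjustment across these genes. Intervals of 95% came from the same fit, and standard deviations are between mice. Floors of 3 counts cover counting error only. Ratios were compared by exact permutation tests, whose smallest p for 3 against 3 mice is 0.1. The alternatives were DESeq2 1.42.0, limma 3.58.1 voom, 3 other scalings, 3 other minimums, non-robust estimation and leaving out each mouse. The code was first tested on data simulated with the means, library sizes and dispersions of these mice. There edgeR called 44.4% of 99 genes with a log2 change of 0.65 at an unadjusted p under 0.05. At an adjusted p under 0.05 it called 3.03% of them. With a change of 1.5 these shares were 98% and 65.3% of 98 genes. A gene with a change of 0.65 would thus often not pass here.

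The 10 genes and all lists, written by hand, were chosen with earlier results of these data known. All 10 are named, with Keap1, Hmox1, Gsr, Srxn1, Slc7a11 and Dio2, up to 4 genes of each further list with the lowest p in each direction, and the 3 genes most like Nfe2l2 and Sod2 by Pearson's r, of which a gene is not reported here. Pax7, Ugdh and Cyba were named outside this rule. The members' median under the alternatives was added after the data had been seen.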

Additional observations from a re-analysis of the deposited data

How the results depend on the processing

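No paired analysis was possible because the labels tie no WT mouse to a cD2KO mouse. Sod2 was called, as the only gene of the 10 that was higher, in every fit run. The count of lower genes of the 10 ranged from 0 to 1 with single mice left out, the 1 being Gpx4 without c124, and was 0 under the other settings. With single mice left out, the log2 fold change ranged from -0.26 to 0.20 for Txnrd1 (0.09 without fl126), from -0.47 to 0.058 for Gpx1, from -0.56 to 0.086 for Gclc and from -1.46 to 0.30 for Maff, and the median of the 9 genes from -0.32 to -0.053. The further pathway genes that were higher, 4 at first, were 2 with total counts as the scale, 7 with no minimum and 2 with a minimum of 50, and ranged from 1 to 13 with single mice left out. Those that were lower, 14 at first, ranged from 8 to 17 with single mice left out and were 18 with no minimum. Of all genes, 621 were higher and 770 lower. These counts were 939 higher with no minimum, 505 lower with a minimum of 50, and 439 higher and 953 lower with total counts as the scale. With single mice left out the higher ranged from 402 (without fl128) to 933 (without fl125) and the lower from 399 (without c129) to 874. Fewer or more genes were tested under other minimums, and the cause of the other shifts was not tested. Depth limits Nqo1, Gsr, Slc7a11 and Dio2, which lie within a few counts of the floor in some mice.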

Other observations

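Enzymes that make reactive oxygen species were read beside those that remove them. Of 16 tested genes of this list, 0 rose and 5 fell in cD2KO by edgeR (unadjusted p under 0.05), against 5.34% higher and 6.62% lower among all genes tested, with a median log2 fold change of -0.49. They were Alox5, a lipoxygenase of leukocytes, Ncf1, Cybb and Cyba, which encode parts of the phagocyte NADPH oxidase, and Xdh, xanthine dehydrogenase. Cybb was at 81.4, 219 and 106 CPM in c124, c129 and c130 and at 6.83, 32.7 and 41.1 CPM in fl125, fl126 and fl128, a log2 fold change of -2.30 (edgeR adjusted p = 0.298). Alox5 fell from 28.1 ± 8.25 to 7.01 ± 4.18 CPM and Ncf1 from 42.3 ± 9.95 to 11.3 ± 8.29 CPM (SD, n = 3 per group). The adjusted p of Alox5 and Ncf1 were 0.0906 and 0.136 in edgeR and 0.00437 and 0.0088 in DESeq2. Xdh fell by 1.18 on the log2 scale. Cyba overlapped between the groups and lost the call without c130, fl125, fl126 or c129 (-0.61 without c129). The library labelled fl125 was the lowest of the 6 in all of these genes, and it was also the lowest in summed immune markers (311 CPM, against 2786 to 9111 CPM in the other mice). The WT mouse c129 was the highest of the 6 in the same genes and in summed immune markers (9111 CPM). The part of immune cells in these values was not tested.

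Of 24 tested selenoproteins and genes of selenocysteine insertion, leaving out Gpx1, Gpx4 and Txnrd1, 2 rose and 3 fell, or 20.8%, against 12% of all genes tested. Msrb1 and Txnrd2, given above, were 2 of these. Selenop, the secreted carrier of selenium, was at 557, 1364 and 669 CPM in c124, c129 and c130 and at 149.8, 339 and 359 CPM in fl125, fl126 and fl128, which is -1.61 on the log2 scale (standard error 0.43, adjusted p of 0.177 in edgeR and 0.00127 in DESeq2). It stayed called with each mouse left out, at -1.09 without c129. The 6 mice had the same order in Selenop as in summed immune markers, whose part was not tested. Selenot, of the endoplasmic reticulum, fell by 0.59 on the log2 scale and Selenom, of the same compartment, rose by 0.54 (adjusted p in edgeR of 0.331 and 0.321). Selenot lost the call without c129 or fl128, and Selenom without c129, c130 or fl128. Gpx3, the secreted glutathione peroxidase, averaged 2910 ± 990 CPM in WT mice against 4376 ± 1053 in cD2KO mice (SD, n = 3 per group), with overlapping groups. Its unadjusted p was 0.0501 in edgeR, just over the threshold, and 0.0243 in DESeq2.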
